A study of Mus musculus with 8 samples.

Results

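The axonemal genes examined here encode the dynein motors, the radial spokes and the cilia- and flagella-associated proteins (Cfap) of the motile axoneme. They were chosen by gene name: numbered Dnah heavy chains, the chains Dnaic1, Dnaic2, Dnali1, Dnal1 and Dnal4, and numbered Dnaaf, Drc, Rsph and Cfap genes. The rule found 61 of the 21949 genes in the deposited tables. Each gene is represented by the transcript with the highest mean count over 8 libraries, and all 61 passed the filter on low counts that left 16051 genes to test. Total RNA and ribosome-protected fragments (RPF, footprints) came from testes of mice of the C57BL/6 strain, aged 24 days after birth. Mice were WT or Miwi-null, with 2 libraries for each genotype and assay. Miwi is the PIWI protein encoded by Piwil1, which binds piRNAs in meiotic and post-meiotic male germ cells, and its loss stops spermatogenesis at the round spermatid stage. The tissue is whole testis, so germ cells and somatic cells were measured together, and the labels name neither the null allele nor the animals. P-values therefore measure the spread between these libraries, which may be technical.

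An axoneme is a ring of doublet microtubules around a central pair, and it forms the core of the sperm tail. Outer and inner dynein arms on each doublet drive bending, while radial spokes, the nexin-dynein regulatory complex and the central apparatus control when each arm is active. Dynein arms are built in the cytoplasm with the help of dedicated assembly factors before they enter the axoneme. In the testis many of these genes are transcribed from meiosis onwards, ahead of tail formation in spermatids.

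Library totals ran from 11130954 to 15592804 counts in RNA and from 11662659 to 28334618 in RPF, so a single count stood for 0.0340 to 0.0893 CPM (counts scaled to a common library total with TMM, a factor that centres the bulk of genes). All changes are log2 of null over WT with the standard error of the fit (SE), and calls used a threshold of 0.05 on p-values of edgeR's quasi-likelihood test, adjusted by Benjamini-Hochberg across the 16051 genes. Piwil1 RNA was at 552 and 533 in WT and 3.52 and 2.27 in null, and its footprints were at 482 and 389.7 in WT and 3.30 and 3.26 in null, so all libraries match their genotype labels. The 6 late spermatid markers tested (Tnp1, Tnp2, Prm1, Prm2, Odf1 and Akap4) all fell in both assays. Their summed RNA was 13648 and 13477 CPM in WT and 1408 and 1401 in null, and their summed footprints were 5876 and 5856 in WT and 59.5 and 57.6 in null. Of 7 pachytene markers, 3 rose and none fell in RNA, with sums of 3298 and 3584 CPM in WT and 3851 and 3829 in null. In RPF 1 of them rose and 1 fell, with sums of 13783 and 13773 in WT and 12258 and 11918 in null. Of 6 round spermatid markers, 3 fell in RNA and 5 fell and 1 rose in RPF. Summed RPF of Leydig cell markers was 2528 and 2445 CPM in WT and 8036 and 8956 in null, and 5 of those 6 genes rose. In RNA 3 of them rose and 1 fell, with sums of 1159 and 1148 in WT and 2218 and 2227 in null. RNA fell for 4 of 6 Sertoli cell, 4 of 5 myoid, 3 of 6 spermatogonia and 2 of 5 endothelial markers, and none of these rose. Over all genes tested 20.8% fell in RNA. In RPF 1 Sertoli cell marker rose and 1 fell, 1 myoid and 3 endothelial markers fell, and no spermatogonia marker was called. Summed Sertoli cell footprints were 3315 and 3475 CPM in WT and 3563 and 3520 in null. Of 5 macrophage markers, 2 rose in RNA and 1 in RPF. The libraries thus differ in the RNA of markers of several cell types, whose part in the axonemal results was not tested. In whole tissue, fewer cells of a type and less RNA per cell cannot be told apart.

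Ribosome footprints on axonemal genes were higher in Miwi-null testes for most of the 61 genes. In RPF, 41 rose and 1, Cfap69, fell, while 25.4% of all genes tested were called, 12% higher and 13.3% lower. In RNA, 28 rose and 7 fell, beside 37.3% of all genes called, 16.5% higher and 20.8% lower. Translational efficiency (TE), here the footprint change less the RNA change, rose in 12 and fell in 6, beside 14.9% of all genes called, 7.33% higher and 7.56% lower. As shares of the 61, 67.2% rose in RPF, 45.9% rose in RNA and 19.7% rose in TE. The falls were 1.64% in RPF, 11.5% in RNA and 9.84% in TE, the last near the 7.56% of all genes. The median change of the 61 genes was 0.30 in RNA, 0.59 in RPF and 0.25 in TE. Over all genes tested the medians were -0.07, -0.005 and 0.04.

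The 2 calls sort the genes into a few classes. RNA and footprints rose together in 27 genes, 44.3% of the 61, while 6.24% of all genes tested rose in both. Those 27 hold 11 of the 12 heavy chains, Drc1, Rsph3a, Rsph3b and 13 Cfap genes. Another 13 (21.3%, beside 5.1% of all genes) rose in footprints with no RNA call: Cfap53, Cfap73, Cfap77, Cfap99, Cfap157, Cfap298, Dnaic1, Dnaic2, Dnal1, Drc3, Drc7, Rsph1 and Rsph6a. For 6 genes RNA fell with no footprint call: Cfap45, Cfap100, Dnaaf1, Dnali1, Rsph9 and Rsph14. Their share of 9.84% is near the 12.2% of all genes. Dnaaf2 fell in RNA and rose in RPF, Cfap36 rose in RNA with no RPF call, and Cfap69 fell in RPF with no RNA call. The remaining 12 (19.7%, beside 52.8% of all genes) had no call in either assay, and none of the 61 fell in both, whereas 7.89% of all genes did.

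**Figure D1:**
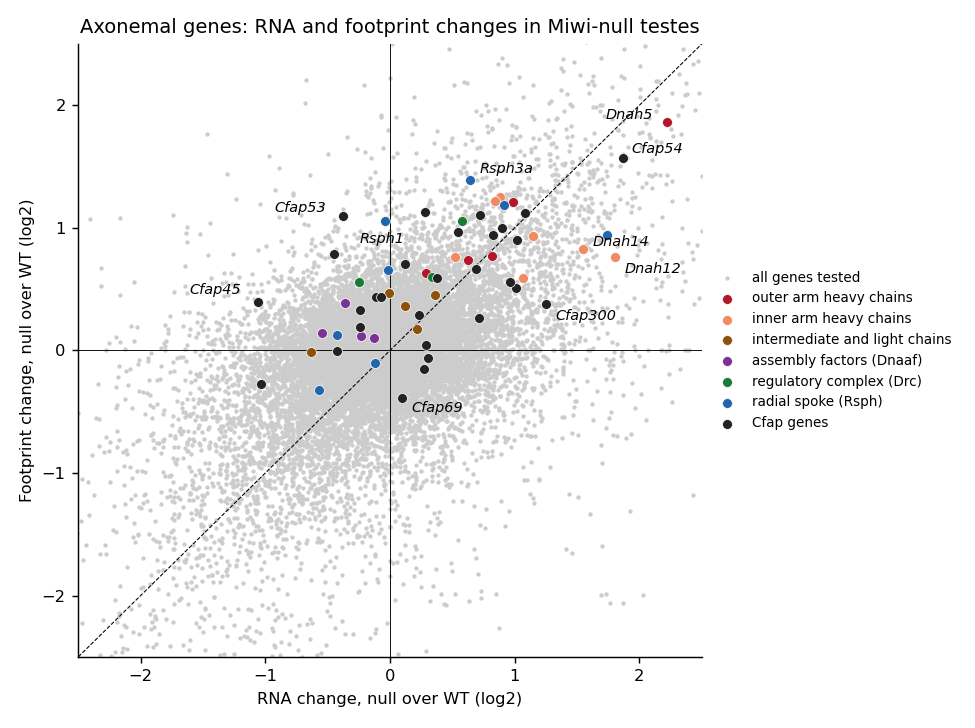
Log2 change in RNA (x axis) against log2 change in footprints (y axis) for the 61 axonemal genes, coloured by class, over all genes tested in grey; on the dashed line both changes are equal. The axes stop at 2.5 in each direction, which leaves out 592 of all genes and none of the 61, and heavy chains lie to the upper right, led by Dnah5.

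The WT and null libraries did not overlap for 56 of the 61 genes in RNA (91.8%) and for 52 in RPF (85.2%), whether or not a gene was called, beside 77.8% and 57.5% of all genes tested. Paired libraries of a group differed by a median of 0.06 in RNA and 0.13 in RPF on the log2 scale, so the footprint replicates were the less alike. The fit gives each gene 1 spread for both assays. With the 4 footprint libraries fitted alone, 25 of the 61 rose, beside 5.28% of all genes tested, and the Cfap69 fall lost its call (adjusted p = 0.129).

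Promoter sequences are shown for 4 genes that rose in footprints and hold a match, chosen after their values were seen, because RFX factors, regulators of ciliary genes, bind the X-box motif in such promoters. RefSeq promoter windows (GRCm38.p6, 250 bases before to 50 after a start site) matched 49 of the 61 genes, with 53 windows. The start site is the one of the promoter table, and for 32 of the 49 genes no window starts at the outer end of the annotated gene. The X-box arm GTTGCC, searched on both strands, was in 15 of the 49 (30.6%) and in 14.1% of 27025 genes with a window. The full X-box, GTTNCC followed within 0 to 3 bases by GGNAAC, was in 1 of the 49, Cfap298, and in 0.936% of all. Full sites with the letters of the arm are counted in both. The cAMP element TGACGTCA was in 1, Dnah6, starting at -175, and in 2.03% of all. The 250 bases before the start site of the window are printed 5′ to 3′, with matches on either strand in capitals.
Cfap298 (chr16:90934850-90935099, minus strand): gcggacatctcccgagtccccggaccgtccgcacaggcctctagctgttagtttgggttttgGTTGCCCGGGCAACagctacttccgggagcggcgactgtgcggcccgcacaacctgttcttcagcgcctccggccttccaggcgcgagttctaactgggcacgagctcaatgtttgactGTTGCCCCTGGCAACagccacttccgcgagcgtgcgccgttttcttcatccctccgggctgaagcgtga
Dnah10 (chr5:124724835-124725084, plus strand): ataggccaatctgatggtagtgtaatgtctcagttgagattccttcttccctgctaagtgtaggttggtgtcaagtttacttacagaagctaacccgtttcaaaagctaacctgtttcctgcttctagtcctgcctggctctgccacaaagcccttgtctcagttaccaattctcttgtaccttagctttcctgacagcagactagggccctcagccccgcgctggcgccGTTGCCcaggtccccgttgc
Cfap44 (chr16:44394549-44394798, plus strand): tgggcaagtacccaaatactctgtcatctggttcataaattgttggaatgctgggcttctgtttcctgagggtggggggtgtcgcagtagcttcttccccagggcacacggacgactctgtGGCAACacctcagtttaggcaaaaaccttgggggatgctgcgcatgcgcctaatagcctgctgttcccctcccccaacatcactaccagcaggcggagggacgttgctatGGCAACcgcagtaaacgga
Cfap58 (chr19:47937462-47937711, plus strand): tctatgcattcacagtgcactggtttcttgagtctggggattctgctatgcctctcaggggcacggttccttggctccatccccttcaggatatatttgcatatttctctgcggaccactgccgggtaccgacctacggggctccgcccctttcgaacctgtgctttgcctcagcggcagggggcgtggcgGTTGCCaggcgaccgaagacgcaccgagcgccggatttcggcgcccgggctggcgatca
Cfap298, a dynein assembly protein, holds 2 full matches, starting at -188 and -69 from that start site. Dnah10 holds an X-box arm at -20, Cfap44 at -129 and -19, and Cfap58 at -59. The start site of Cfap44 lies 57 bases inside the annotated gene, so its arm at -19 does too, while those of the other 3 are the gene's annotated start. Of the 15 genes with an X-box arm, 8 rose in RNA and 11 in RPF, with median changes of 0.58 and 0.44. Of the 34 without, 16 rose in RNA and 22 in RPF, with medians of 0.32 and 0.58. A match is a string of letters, not a measured binding site.

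The outer arm heavy chains are the motors that generate most of the beat's power, and Dnah8 and Dnah17 are the pair used in sperm. Both stood far above the other 3 outer arm chains in level per coding length. Dnah8 RNA (gene ENSMUSG00000033826.9, chr17:30626935-30875762 on GRCm38) had a deposited FPKM, a fragment level scaled for length and library total, of 204 and 203 in WT and 378 and 375 in null. Dnah17 (chr11:118021723-118130719) had 115 and 107 in WT and 142 and 141 in null. Dnah5, Dnah9 and Dnah11, the chains known from cilia of the airway, all had RNA means under those of Dnah8 and Dnah17: 0.214, 0.727 and 0.114 FPKM in WT and 1.04, 1.51 and 0.183 in null.

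Dnah8 RNA was 3645 and 3658 in WT and 6479 and 6411 in null in CPM. The groups did not overlap, and the RNA change was 0.82 ± 0.08 (adjusted p = 0.000116). Its footprints were 1358 and 1251 in WT and 2179 and 2277 in null in CPM, a change of 0.77 ± 0.08 (adjusted p = 0.000171), close in size to that of its RNA. Dnah17 RNA was 1946 and 1807 in WT and 2300 and 2272 in null in CPM, a smaller change of 0.28 ± 0.08 (adjusted p = 0.0211). Dnah17 footprints were 504 and 516 in WT and 796 and 784 in null, a change of 0.63 ± 0.08. Of all 61 genes Dnah5 (chr15:28154854-28472045) had the largest changes in both RNA and RPF, from a low start. Its RNA was 3.63 and 3.87 in WT and 16.6 and 18.3 in null in CPM, a change of 2.22 ± 0.19 (adjusted p = 6.7e-05), and its footprints were 1.09 and 1.70 in WT and 4.91 and 4.89 in null, a change of 1.86 ± 0.22 (adjusted p = 0.000411). Every null library lay above both WT libraries of its assay. Dnah9 RNA was 13.0 and 11.7 in WT and 24.5 and 24.5 in null and its footprints were 3.57 and 4.43 in WT and 9.11 and 9.22 in null, changes of 0.99 ± 0.14 and 1.21 ± 0.15, both called. Dnah11 did not pass the test, with changes of 0.63 ± 0.32 in RNA and 0.74 ± 0.40 in RPF at 6 to 46 counts per library. None of the 5 outer arm chains was called in TE.

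All 7 inner arm heavy chains found by the rule rose in both assays, with RNA changes from 0.52 to 1.81 and RPF changes from 0.59 to 1.25. Dnah2 and Dnah10 form the double-headed inner arm, while Dnah1, Dnah3, Dnah6 and Dnah12 belong to single-headed motors. Dnah1 had the highest RNA of the 7, at 782 and 716 in WT and 1089 and 1055 in null CPM, a change of 0.52 ± 0.08, and its footprints were 223 and 214 in WT and 373 and 369 in null, a change of 0.76 ± 0.08. Dnah2 RNA was 524 and 511 in WT and 913 and 943 in null CPM, a change of 0.84 ± 0.08. Dnah2 footprints were 132 and 130.2 in WT and 297 and 314 in null, a change of 1.22 ± 0.08 (adjusted p = 1.4e-05). Its partner Dnah10 (chr5:124725085-124834308) followed closely. Dnah10 RNA was 346 and 326 in WT and 616 and 619 in null CPM and its footprints 75.9 and 73.4 in WT and 178 and 178 in null, changes of 0.88 ± 0.08 and 1.25 ± 0.08. For both partners the footprint change was the larger, though neither passed the test in TE (0.38, adjusted p = 0.0592, and 0.37, adjusted p = 0.0659).

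For 4 other chains the RNA change was the larger. Dnah12 (chr14:26691554-26892719) RNA was 166 and 181 in WT and 610.3 and 604 in null CPM, a change of 1.81 ± 0.10 (adjusted p = 6.2e-06). Its footprints were 122 and 111 in WT and 193 and 204 in null, a change of 0.76 ± 0.09, so TE fell by 1.04 (adjusted p = 0.00230). Dnah14 RNA (chr1:181576593-181814932) was 279 and 292 in WT and 845 and 828 in null CPM and its footprints 184 and 183 in WT and 329 and 321 in null, changes of 1.55 ± 0.08 and 0.83 ± 0.08. Both assays show null above WT with no overlap, and the TE change was -0.73 ± 0.11 (adjusted p = 0.00546). Dnah3 RNA was 294 and 295 in WT and 609 and 627 in null CPM, a change of 1.07 ± 0.08. Dnah3 footprints were 144 and 138 in WT and 213 and 213 in null, a change of 0.59 ± 0.08, and TE changed by -0.48 ± 0.11 (adjusted p = 0.0276). Dnah6 RNA was 297 and 314 in WT and 680.3 and 673 in null CPM and its footprints 142 and 132 in WT and 261 and 264 in null, changes of 1.15 ± 0.08 and 0.94 ± 0.08, with no TE call.

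**Figure D2:**
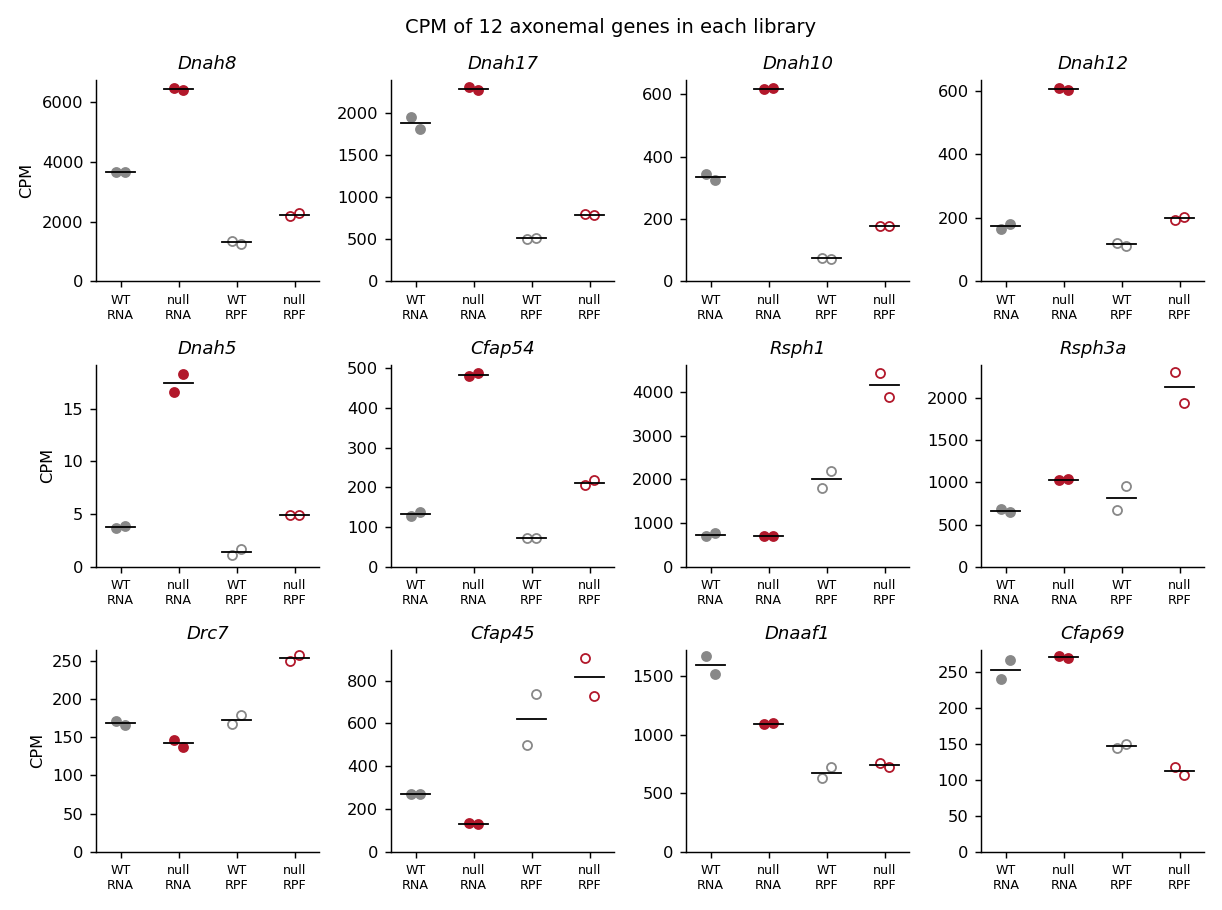
CPM of 12 axonemal genes in each of the 8 libraries (filled points RNA, open points RPF; grey WT, red Miwi-null), with bars at the group means and every y axis from 0. Dnah8 RNA sits at 3645 and 3658 in WT and at 6479 and 6411 in null, while the Rsph1 groups overlap in RNA and are apart in footprints.

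The deposited TE, footprint FPKM over RNA FPKM, places the heavy chains side by side per coding length. The 7 inner arm chains spread from 0.277 (Dnah10) to 0.844 (Dnah12) in WT and from 0.332 to 0.449 in null. Dnah12 had a deposited TE of 0.941 and 0.746 in WT and 0.354 and 0.400 in null, and Dnah14 one of 0.845 and 0.760 in WT and 0.437 and 0.461 in null. Dnah3 and Dnah6 followed in the WT order, at 0.598 ± 0.0442 and 0.561 ± 0.0702 (SD, n = 2), a gap smaller than the spread. Dnah1, Dnah2 and Dnah10 were lowest in WT, at 0.364 ± 0.00178, 0.316 ± 0.00938 and 0.277 ± 0.00571. In null the means of Dnah12, Dnah3, Dnah1 and Dnah2 lay between 0.377 and 0.400, a gap smaller than the SD of Dnah12 (0.0327, n = 2). The outer arm pair reached 0.399 ± 0.0318 for Dnah8 and 0.399 ± 0.0160 for Dnah17 in null. The 432 genes tested with a coding length above 6000 bases had a median TE of 0.440 in WT and 0.380 in null, whereas the median over all genes was 1.27 and 1.18. These levels are a description, with no test between genes.

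**Figure D3:**
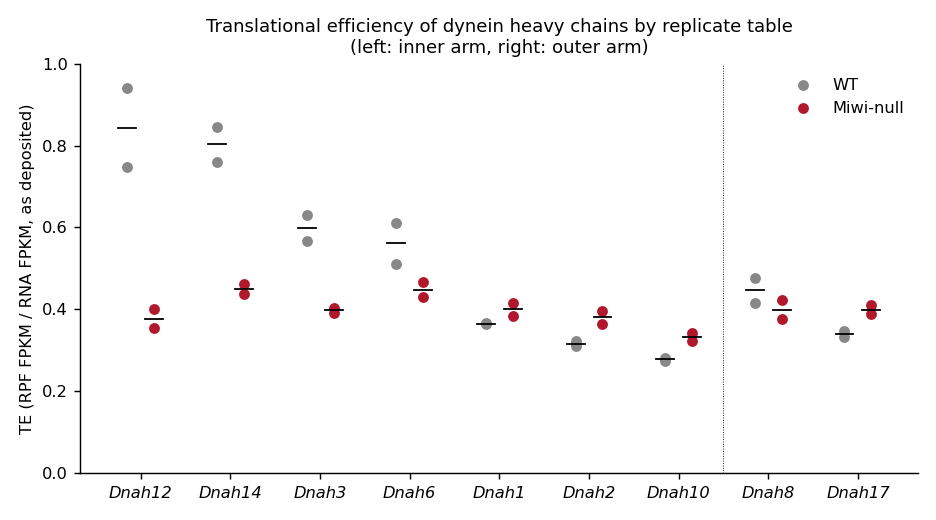
Deposited TE (footprint FPKM over RNA FPKM, no unit) of 9 dynein heavy chains, 1 point per replicate table, WT in grey and Miwi-null in red, with bars at the means. Inner arm chains run from 0.277 to 0.844 in WT and from 0.332 to 0.449 in null.

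The 5 smaller dynein subunits had median changes of 0.12 in RNA and 0.37 in RPF, beside 1.07 and 0.83 for the inner arm heavy chains. The intermediate chains Dnaic1 and Dnaic2, which sit at the base of the outer arm, rose in footprints with no RNA call, by 0.46 ± 0.09 and 0.37 ± 0.10. Dnaic1 was also called in TE (0.47 ± 0.13, adjusted p = 0.0467), and Dnaic2 was not (0.25, adjusted p = 0.259). The Dnaic1 TE call ended with DESeq2, with no scaling and with TMM within each assay, among other alternatives. No difference between Dnaic1 and Dnaic2 was tested. Dnal1, a light chain on the outer arm motor, also rose in RPF (0.45 ± 0.14), and Dnal4 was not called in either assay. Dnali1, a light chain of single-headed inner arms, had the highest WT RNA of the 5 in CPM. Dnali1 RNA fell, from 176 and 155 CPM in WT to 109 and 104 in null (-0.64 ± 0.13, adjusted p = 0.00611). Dnali1 footprints were 93.2 and 119.6 in WT and 109 and 102 in null, overlapping groups with a change of -0.01 ± 0.13. Dnali1 overlaps Gnl2 and Dnaic1 overlaps Enho in the annotation. In all, 17 of the 61 genes overlap another coding gene, and strand use in the counting is not given in the sources used here, so their values are uncertain: also Cfap36, Cfap57, Cfap73, Cfap74, Cfap99, Cfap157, Cfap221, Dnaaf1, Dnaaf5, Dnah11, Dnah17, Drc3, Rsph1, Rsph9 and Rsph14.

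Of the 4 assembly factors, which fold and join dynein subunits in the cytoplasm, none rose in RNA, 2 fell (Dnaaf1 and Dnaaf2), and Dnaaf2 alone rose in RPF. Dnaaf1 (chr8:119575235-119598454), a leucine-rich repeat protein, had the highest mean WT RNA of all 61 genes per coding length, 663 ± 48.1 FPKM (SD, n = 2), a gap to Rsph1 (639.8 ± 39.1) that is within the spread. Dnaaf1 overlaps Taf1c in the annotation. Dnaaf1 RNA was 1672 and 1516 in WT and 1090 and 1098 in null CPM, a change of -0.54 ± 0.10 (adjusted p = 0.00278). Its footprints were 630.1 and 722 in WT and 760.0 and 728 in null, a change of 0.14 ± 0.10 that did not pass, and TE rose by 0.68 (adjusted p = 0.0142). Dnaaf2, a chaperone cofactor, had RNA of 168 and 162 in WT and 128 and 129.6 in null CPM and footprints of 62.3 and 75.3 in WT and 92.9 and 87.4 in null. Its RNA change was -0.36 ± 0.11 and its RPF change 0.39 ± 0.11, so TE rose by 0.75 (adjusted p = 0.0164). Dnaaf3 and Dnaaf5 were not called, with RNA changes of -0.13 and -0.23.

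The nexin-dynein regulatory complex links neighbouring doublets and limits their sliding. All 3 Drc genes rose in RPF and Drc1 rose in RNA as well. Drc1, a scaffold of the complex, had the highest WT RNA of the 3, at 184 and 170.0 in WT and 262 and 267 in null CPM, a change of 0.58 ± 0.12. Drc1 footprints were 318 and 271 in WT and 563 and 664 in null, a change of 1.06 ± 0.12 (adjusted p = 0.000280). Drc7 RNA (chr8:95055103-95078141) was 172 and 165 in WT and 146 and 138 in null CPM, a change of -0.25 ± 0.09 that did not pass. Drc7 footprints were 167 and 178 in WT and 250.4 and 258 in null, a change of 0.56 ± 0.09, and TE rose by 0.80 (adjusted p = 0.00542).

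Radial spokes carry signals from the central pair to the dynein arms. Of the 8 spoke genes, 4 rose in RPF (Rsph1, Rsph3a, Rsph3b and Rsph6a). In RNA 2 rose (Rsph3a and Rsph3b) and 2 fell (Rsph9 and Rsph14). Of all genes tested 12% rose in RPF, and 16.5% rose and 20.8% fell in RNA, so the RNA counts are not read as a trait of the class. Rsph1 (chr17:31255019-31277296), a spoke head protein, had an RNA change with no call and higher footprints. Its RNA was 697 and 764 in WT and 710.0 and 711 in null CPM, a change of -0.04 ± 0.12, and the groups overlapped. Its footprints were 1810 and 2205 in WT and 4442 and 3884 in null, a change of 1.05 ± 0.12 (adjusted p = 0.000283). Deposited TE of Rsph1 was 3.32 and 3.50 in WT and 7.01 and 6.49 in null, and in the fit TE rose by 1.09 ± 0.16 (adjusted p = 0.00449). Rsph6a, a spoke head protein of the sperm tail, had the same order of changes, -0.01 ± 0.11 in RNA and 0.66 ± 0.11 in RPF. Rsph3a (chr17:7945614-7979556), a spoke stalk protein, had RNA of 681 and 643 in WT and 1032 and 1037 in null CPM and footprints of 671 and 955 in WT and 2313 and 1948 in null. Changes were 0.64 ± 0.16 in RNA and 1.39 ± 0.16 in RPF. Its close copy Rsph3b had changes of 0.92 ± 0.19 and 1.19 ± 0.19, and reads may be shared between the 2 copies, so each value is uncertain.

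Rsph9, another spoke head protein, moved the other way in RNA. Rsph9 RNA was 119 and 115 in WT and 81.0 and 76.4 in null CPM, a change of -0.57 ± 0.13 (adjusted p = 0.00887), and its footprints were 284 and 224 in WT and 191 and 215 in null, a change of -0.32 ± 0.13 that did not pass. Rsph14 RNA was 21.0 and 18.2 in WT and 15.3 and 13.9 in null CPM, a change of -0.43 ± 0.13, with footprints of 20.7 and 19.3 in WT and 21.9 and 21.9 in null and no call. Rsph4a, the spoke head protein of motile cilia, was very low, with 1 to 8 RNA counts and 25 to 49 footprint counts per library. Its changes of 1.74 ± 0.85 in RNA and 0.95 ± 0.38 in RPF did not pass, although the null libraries lay above WT in both assays, and it was called higher in RPF without WT RPF replicate 2 and in RNA with limma-voom. Rsph1 overlaps Ubash3a, Rsph9 overlaps Mrps18a and Rsph14 overlaps Gnaz in the annotation.

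**Figure D4:**
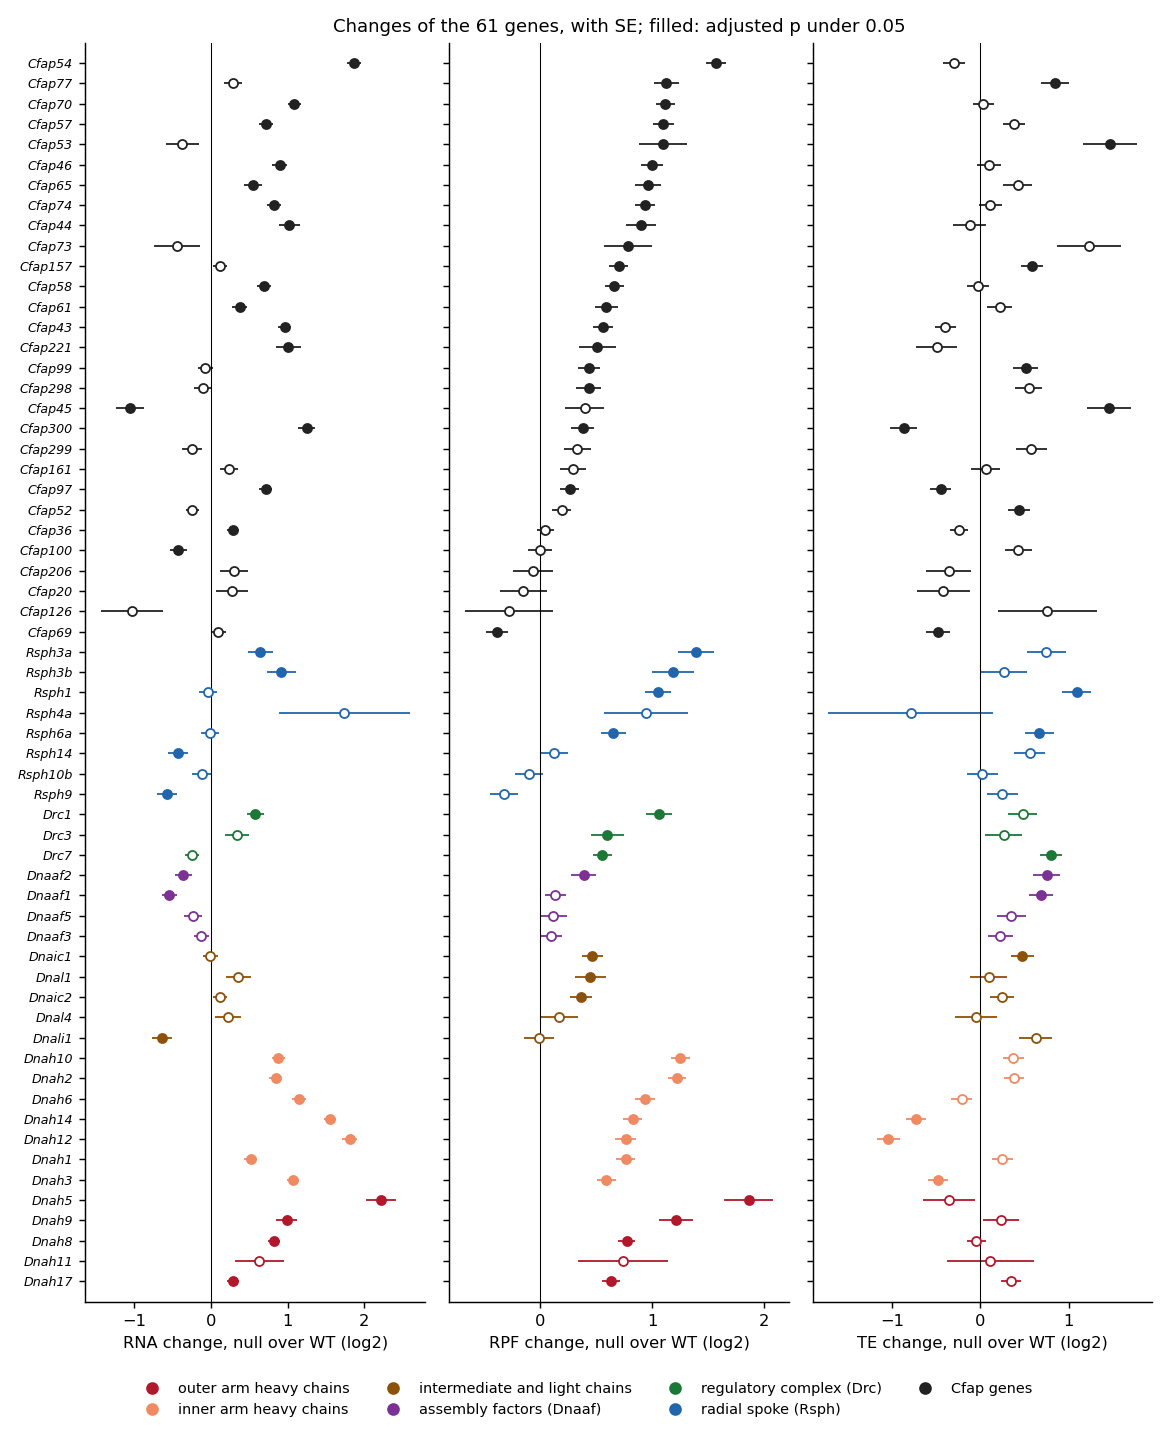
Log2 change, null over WT, of the 61 genes in RNA, RPF and TE (3 panels), grouped by class and ordered by RPF change; bars are 1 SE and filled points have an adjusted p under 0.05. Inner arm heavy chains lie right of 0 in RNA and RPF and on both sides of 0 in TE, and Cfap69 is the filled point left of 0 in RPF.

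The Cfap genes include parts of every axonemal structure. Of the 5 assigned to the central apparatus, 4 rose in both assays (Cfap46, Cfap54, Cfap74 and Cfap221) and Cfap69 did not. The Cfap221 footprint call, at adjusted p = 0.0497, ended with no scaling, with limma-voom and with the coding length trend removed. It also ended with the footprint libraries fitted alone and under further alternatives. Cfap54 (chr10:92775609-93083487) RNA was 127 and 138 in WT and 479.8 and 488 in null CPM, a change of 1.87 ± 0.09 (adjusted p = 4.3e-06). Its footprints were 71.7 and 71.3 in WT and 205 and 218 in null, a change of 1.57 ± 0.09 (adjusted p = 5.1e-06), and all null libraries lay above WT. Cfap69 (chr5:5579278-5664232) had the highest WT RNA of the 5, at 240.0 and 268 in WT and 273 and 269 in null CPM, a change of 0.09 ± 0.10 with no call. Its footprints fell, from 145 and 149 CPM in WT to 119 and 107 in null (-0.39 ± 0.10, adjusted p = 0.0206). Cfap69 TE changed by -0.48 ± 0.14 (adjusted p = 0.0496), a call that ended with DESeq2 (adjusted p = 0.0571), with RLE factors (0.0510), with no filter on low counts (0.0564), with the longest transcript (0.0504), with the length trend removed (0.0598) and without any 1 of the RNA or null RPF libraries (adjusted p from 0.0517 to 0.195). Without null RPF replicate 2 its footprint change was -0.29 (adjusted p = 0.130), and without either null RNA library the adjusted p was 0.0591 or 0.0592.

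Of 6 genes for proteins inside or on the doublet microtubules, none rose in RNA, 1 fell (Cfap45), and 1 rose in RPF (Cfap53). Cfap45 (chr1:172521130-172545870), an inner doublet protein, had RNA of 271 and 271 in WT and 132 and 129 in null CPM, a change of -1.06 ± 0.18 (adjusted p = 0.00223). Its footprints were 499 and 738 in WT and 904 and 727 in null, overlapping groups with a change of 0.40 ± 0.17, and TE rose by 1.45 ± 0.25 (adjusted p = 0.00805). Shorter coding transcripts of Cfap45 with a mean count of at least 100 had log2 RNA ratios from -0.61 to -0.04. Their TE ratios ran from 0.35 to 0.82, so the size of both changes varied with the transcript. Cfap53, another inner doublet protein, had RNA of 67.2 and 62.3 in WT and 48.3 and 51.6 in null CPM and footprints of 80.3 and 125 in WT and 254 and 185 in null. Its RNA change was -0.37 ± 0.22 with no call, its RPF change 1.10 ± 0.21 (adjusted p = 0.00608), and TE rose by 1.47 ± 0.30 (adjusted p = 0.0164). Cfap126 had an RNA change of -1.03 ± 0.40 with no call.

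The tether that holds inner arm heads to the doublet contains Cfap43 and Cfap44, and Cfap73 and Cfap100 form the modifier of inner arms complex. Cfap43 and Cfap44 rose in both assays. Cfap43 RNA was 297 and 301 in WT and 579 and 584 in null CPM and its footprints 508 and 548 in WT and 812 and 744 in null, changes of 0.96 ± 0.09 and 0.56 ± 0.09. Cfap100 RNA fell, from 47.2 and 51.5 CPM in WT to 35.3 and 37.9 in null (-0.43 ± 0.11, adjusted p = 0.0167), and its footprints were 90.1 and 101 in WT and 99.8 and 91.1 in null, with no call. Cfap73 was called in RPF alone (0.78 ± 0.21), and its RNA change was -0.45 ± 0.30. Cfap61, of the calmodulin-associated spoke complex, had RNA of 106 and 108 in WT and 140.2 and 137 in null CPM and footprints of 109 and 95.9 in WT and 148 and 160.5 in null, changes of 0.37 ± 0.10 and 0.59 ± 0.10, both called.

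Among the other 13 Cfap genes, 7 rose in RNA, 10 rose in RPF and none fell in either assay. Cfap206, with the highest WT RNA of these, had RNA of 713 and 750.4 in WT and 905 and 898 in null CPM and footprints of 893 and 1196 in WT and 1180 and 825 in null, and neither was called. Cfap70, an outer arm protein, rose by 1.08 in RNA and 1.12 in RPF. Cfap300 (chr9:8021672-8042875), which works in dynein assembly, rose more in RNA than in RPF. Its RNA was 27.3 and 32.0 in WT and 70.5 and 70.4 in null CPM, a change of 1.25 ± 0.11, its footprints were 79.3 and 80.5 in WT and 108 and 99.8 in null, a change of 0.38 ± 0.11, and TE changed by -0.87 ± 0.15 (adjusted p = 0.00862). Cfap77 showed the reverse, with RNA of 17.3 and 15.9 in WT and 19.6 and 20.7 in null CPM and no call, footprints of 21.4 and 20.2 in WT and 43.6 and 47.2 in null and a TE change of 0.85 ± 0.16 (adjusted p = 0.0116). Cfap97 RNA was 211 and 228 in WT and 361 and 357 in null CPM and its footprints 377 and 375 in WT and 462 and 441 in null, changes of 0.71 ± 0.08 and 0.26 ± 0.08, with TE lower by the test (-0.45 ± 0.12, adjusted p = 0.0386). The Cfap97 footprint call, at adjusted p = 0.0497, ended with DESeq2, limma-voom, no scaling, TMM within each assay and no filter on low counts. It also ended with the footprint libraries fitted alone and under further alternatives.

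The 12 genes whose TE rose were Rsph1, Rsph6a, Drc7, Dnaaf1, Dnaaf2, Dnaic1, Cfap45, Cfap52, Cfap53, Cfap77, Cfap99 and Cfap157. TE fell in Dnah3, Dnah12, Dnah14, Cfap69, Cfap97 and Cfap300, a share of 9.84% that is near the 7.56% of all genes. With no scaling beyond library totals the split was 7 higher (11.5%) and 8 lower (13.1%), beside 4.23% and 10.3% of all genes. With TMM within each assay it was 9 (14.8%) and 7 (11.5%), beside 5.76% and 9.02%. Under both settings the share that fell was near that of all genes. Without scaling the median TE change of all genes moved from 0.04 to -0.10, so TE changes are relative to that centre. With 1 library left out in turn, the median TE change of the 61 genes ran from 0.17 (without null RPF replicate 2) to 0.31 (without WT RNA replicate 2). Over all genes the medians in those fits were -0.02 and 0.04. The counts of calls also moved with single libraries in these fits, among the 61 and among all genes tested. Rsph1 and Dnah12 were called in TE under each of these, yet of the 18 TE calls 0 were made under all alternatives run.

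The calls of RNA falls also moved with single libraries, as did those of all genes tested. Of the 7, 3 were called when WT RNA replicate 1 was left out. Without one or the other null RNA library 3 and 2 were called. Cfap45 and Dnaaf1 were called in RNA under all alternatives run, though the size of the Cfap45 fall varied with the transcript. Of the 28 RNA rises, 16 were called under all of them, and of the 41 RPF rises, 20.

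Heavy chains are among the longest coding sequences in the genome, and change in RNA varied with coding length over all genes. The median RNA change of all genes tested was -0.26 up to a length of 750 bases, -0.10 above that up to 1500, 0.01 up to 3000, 0.07 up to 6000, and 0.28 above 6000. The 14 axonemal genes above 6000 bases had a median of 0.94 in RNA and 0.88 in RPF, beside 0.28 and 0.17 for the 432 genes of that length. The 7 above 3000 and up to 6000 bases had medians of 0.83 and 0.94, beside 0.07 and 0.05. The 25 above 1500 and up to 3000 bases had medians of -0.01 and 0.44, beside 0.01 and 0.03. The 10 above 750 and up to 1500 bases had medians of -0.08 and 0.34, beside -0.10 and -0.03, and the 5 shorter ones had 0.22 and 0.17, beside -0.26 and -0.06. In RPF the axonemal median was the higher in all 5 length classes, and in RNA in all but the class up to 3000 bases, with no test of these differences. With the trend of each library on coding length removed, 30 rose (49.2%) and 7 fell (11.5%) in RNA, beside 18% and 18.1% of all genes. In RPF 40 rose (65.6%), beside 12.5%. Dnah1 and Dnah17 lost their RNA call in that fit, and the RNA change of Dnah17 turned to -0.17 (adjusted p = 0.103). TE then rose in 16 (26.2%, beside 6.26% of all genes), with Dnah1, Dnah2, Dnah10, Dnah17 and Cfap57 gained and Cfap52 lost. It fell in 4 (6.56%, beside 7.87%), with Dnah12 and Dnah14 still among them and Dnah3 and Cfap69 lost.

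**Figure D5:**
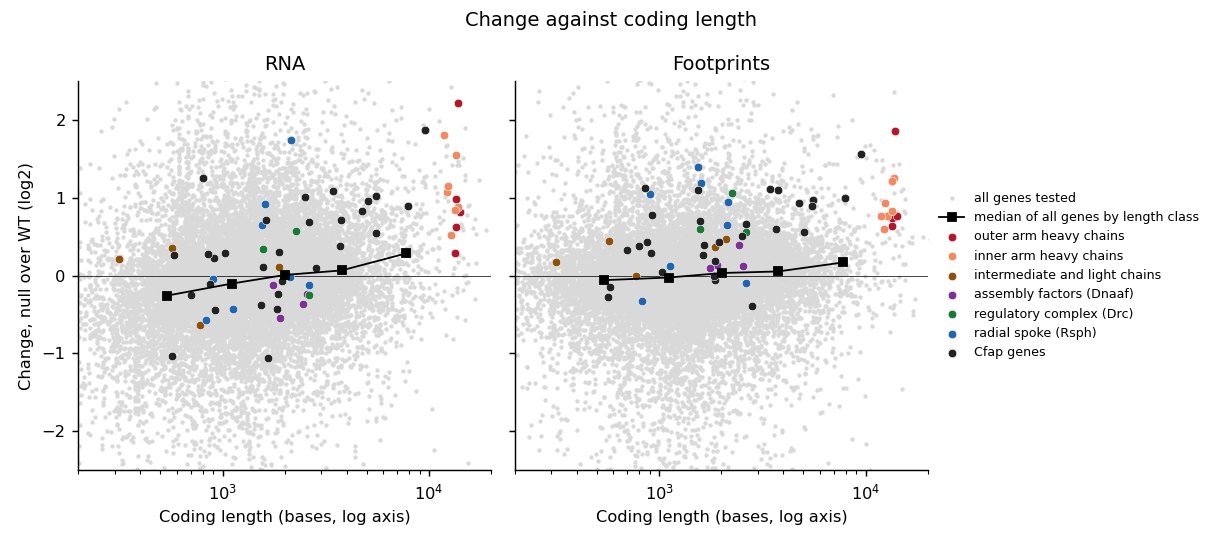
Log2 change, null over WT, against coding length in bases (log axis) in RNA and footprints, with all genes tested in grey, their median in 5 length classes as black squares, and axonemal genes coloured by class. The squares climb from -0.26 to 0.28 in RNA, and the 14 axonemal genes above 6000 bases have medians of 0.94 in RNA and 0.88 in footprints.

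Of 8 listed regulators known to switch on ciliary genes (Rfx1 to Rfx4, Foxj1, Mcidas, Gmnc and Ccno), 6 passed the filter, and Mcidas and Gmnc did not. Of the 6, 1 was called in RNA, 1 in RPF and 2 in TE, beside 37.3%, 25.4% and 14.9% of all genes, too few to describe the list as a whole. Foxj1, the master regulator of motile cilia, had RNA of 111 and 99.0 in WT and 99.1 and 97.0 in null CPM, a change of -0.10 ± 0.10 with no call. Rfx2, which acts in spermiogenesis, changed by -0.17 ± 0.16 in RNA with no call. Rfx1 fell in RNA (-0.45 ± 0.13, adjusted p = 0.0241), and Rfx4 rose in RPF (0.38 ± 0.09, adjusted p = 0.0181). In TE Rfx4 rose (0.49 ± 0.13, adjusted p = 0.0438) and Rfx3 fell (-0.71 ± 0.19, adjusted p = 0.0431). Markers of efferent duct and multiciliated cells, which carry motile cilia beside the testis, were low: 5 of 10 listed passed the filter, and Mcidas, Sntn, Pax8, Aqp1 and Krt18 did not. Their summed RNA was 137 and 122 CPM in WT and 134 and 133 in null, of which Foxj1 made up most. Krt8 and Tppp3 rose in RNA, by 0.76 and 0.67, at means of 6.83 and 7.40 CPM in WT. In RPF 2 of the 5 markers rose and 0 fell, with sums of 39.5 and 40.0 CPM in WT and 49.2 and 51.2 in null.

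Of 52 listed axonemal genes that the name rule does not reach, all tested, 19 rose (36.5%) and 10 fell (19.2%) in RNA, beside 16.5% and 20.8% of all genes, so the share that fell was near that of all genes. In RPF 19 rose (36.5%) and 5 fell (9.62%), beside 12% and 13.3%, and in TE 9 rose (17.3%) and 3 fell (5.77%), beside 7.33% and 7.56%. Their median changes were 0.13 in RNA and 0.25 in RPF. The inner arm heavy chains Dnah7a, Dnah7b and Dnah7c rose in RNA by 1.53, 1.68 and 1.66 and in RPF by 1.35, 1.39 and 1.48. They are close copies, so reads may be shared among them. Of 10 further central apparatus genes 6 rose in RNA and 5 in RPF, and 1, Spag6, fell in both (-0.83 ± 0.10 and -0.75 ± 0.10). Hydin, which builds a projection of the central pair, rose by 0.89 and 0.99. Of 4 docking complex genes, which anchor outer arms, 3 rose in RPF, led by Ttc25 (0.70 ± 0.09).

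Further subunits of the regulatory complex were mixed. Gas8, its Drc4 subunit, fell in RNA by 1.27 and rose in TE by 1.91 (adjusted p = 0.00635), while Fbxl13 rose in RNA (0.44) and fell in RPF by 0.85. Gas8 footprints were 69.8 and 108 in WT and 161 and 115 in null CPM, with WT replicate 2 close to null replicate 2. Mns1, an inner doublet protein, fell in RNA by 0.80 and rose in RPF by 0.66, with a TE change of 1.45 ± 0.17. Wdr66, of the calmodulin-associated spoke complex, rose by 0.74 and 1.16, and Ropn1l, a spoke protein, fell by 0.67 and 0.60. Among intermediate and light chains, Dynll2 fell by 1.57 in RNA and 0.74 in RPF.

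In 41 of the 61 genes, 2 or more transcripts had a mean count of at least 100, and their footprint ratios shared a sign within 39 of the 41 genes and their RNA ratios within 35. Transcripts of a gene share reads, so they are not independent. The authors' deposited table marks 24 of the 61 Up, 12 Down, 21 unchanged and 4 unknown in TE at a fold of 1.2, with no replicate test. Of all 21949 genes, 3713, 3979, 4799 and 9458 have these marks. Unknown is the largest class of all genes and the smallest of the 61, so the marks are not compared further.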

How the data were processed

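Fragment counts per transcript were deposited by the authors unnormalized, with FPKM per coding length (84.7% of lengths are multiples of 3), a TE ratio of footprint to RNA FPKM, and the authors' log2 TE change with pooled replicates, per the file headers. STAR 2.5.0a, Bowtie 1.2.2, cutadapt 2.5 and the build GRCm38 are named, without roles, per the submitters' processing notes. For the counting program and its strand use, the sources used here give nothing. The 61 genes, the gene lists and the tests were chosen with earlier results of these data known, so no list is independent evidence.

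Counts of 1 transcript per gene were tested with edgeR 4.0.16 in R 4.3.3: filterByExpr (minimum count 10, total 15), TMM over 8 libraries, robust quasi-likelihood fit of 4 groups (4 residual degrees of freedom), TE as the interaction, Benjamini-Hochberg over 16051 genes. The test was also run on simulated data in which both assays had the same spread for a gene. Footprint replicates were the less alike in the real libraries, so that run cannot check the RPF or TE calls. Values in every library are given for up to 6 called genes per contrast and direction with the largest change, and for the gene of highest WT RNA CPM per class. Cfap classes and positions come from background knowledge and RefSeq; 60 of 61 genes matched a position. Alternatives included DESeq2 1.42.0 and limma-voom (limma 3.58.1).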

Additional observations from a re-analysis of the deposited data

How the results depend on the processing

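Counts of all genes called were 5984 in RNA, 4073 in RPF and 2390 in TE. With each assay fitted alone they were 9041 in RNA and 1983 in RPF. Of 60 axonemal genes then tested in RNA, 39 rose (65%, beside 29.7% of all genes) and 12 fell (20%, beside 29.6%). Of 61 in RPF, 25 rose (41%, beside 5.28%) and 0 fell (beside 7.42%). With no scaling 7 rose in TE (11.5%, beside 4.23% of all genes). Deviations of same-numbered libraries correlated at 0.02 in RNA and -0.50 in RPF, so the numbers were not taken to pair them. With the replicate block, calls were 3418 in RNA, 1871 in RPF and 212 in TE. Of the 61 genes 22 rose and 3 fell in RNA (36.1% and 4.92%, beside 9.44% and 11.9% of all genes). In RPF 29 rose (47.5%, beside 4.73%) and 0 fell (beside 6.92%). In TE 0 rose and 0 fell, beside 0.262% and 1.06% of all genes (Rsph1 and Dnah12 at adjusted p = 0.0824 and 0.0682). With the replicate block and the coding length trend removed, calls were 3161, 1867 and 199. Then 17 rose and 2 fell in RNA (27.9% and 3.28%, beside 9.86% and 9.83% of all genes). In RPF 21 rose (34.4%, beside 4.83%) and 0 fell (beside 6.8%), and in TE 0 rose and 0 fell (beside 0.174% and 1.07%). The RNA change of Dnah17 was -0.17 with the length trend removed, both with the block and without it, and the cause was not tested. With the replicate block and the footprint numbers crossed, an alternative chosen after seeing the data, calls were 9159, 8286 and 6644. Of the 61 genes 13 then fell in RNA (21.3%, beside 32.2% of all genes) and 3 in RPF (4.92%, beside 26%). In TE 32 rose (52.5%, beside 22.4%) and 13 fell (21.3%, near the 19% of all genes). With limma-voom and library weights, also chosen after seeing the data, 12 fell in RNA (19.7%, beside 30% of all genes). With it 0 fell in RPF (beside 9.38%) and 20 rose in TE (32.8%, beside 8.61%). Leaving out 1 library in turn assumes that the lone library left in its group varies like the other groups. It gave 3244 to 7095 calls in RNA, 2939 to 5170 in RPF and 620 to 3636 in TE. Of the 61 genes, 22 to 34 then rose and 2 to 10 fell in RNA, 32 to 42 rose and 0 to 3 fell in RPF, and 1 to 20 rose and 1 to 8 fell in TE. Of the values of called genes under alternatives, 626 of 700 in RNA, 723 of 840 in RPF and 211 of 342 in TE kept direction and call. Of 88 changes with no call, 55 passed the threshold under some alternative. Low counts limit Rsph4a and Dnah11.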
